A study of Mus musculus with 6 samples.

Results

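Homeobox genes outside the Hox clusters were examined in mouse uterine stromal cells with and without Pbrm1. The members were the 8 genes Msx1, Msx2, Meis1, Meis2, Meis3, Pbx2, Pbx3 and Emx2, taken by symbol as homeobox genes with known roles in the uterus, out of 54232 genes in the count table. RNA-seq libraries came from primary uterine stromal cells taken on day 4, from mice aged 8 to 12 weeks, with 3 WT and 3 Pbrm1 cKO libraries. A label names the day as one of pregnancy and the protocol calls the mice pseudopregnant. Controls labelled WT were Pbrm1 fl/fl by the study's account, so they carry the floxed alleles without Cre. The Pbrm1 cKO mice were Pbrm1 fl/fl with PR IRES-cre/+, so Cre was driven by the progesterone receptor gene, which is active in uterine epithelium as well as stroma and also in the corpus luteum of the ovary. Cells from 5 to 10 uterine horns were pooled per preparation, and RNA was taken after 4 hours of plating and 2 hours in fresh medium with serum. The labels list the libraries as separate samples, but do not state which animals went into each, so p-values measure the spread between these preparations.

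Homeobox genes encode transcription factors that bind DNA through a homeodomain. MSX1 and MSX2 are related repressors downstream of BMP signals, and the uterus needs them before implantation. MEIS and PBX proteins belong to the TALE class, named for an extended loop in the homeodomain. They form complexes with HOX proteins that raise the specificity of DNA binding. EMX2 is required for the urogenital tract to form and is known in the endometrium as a gene that HOXA10 represses.

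Stretches of promoter sequence are shown for the members whose transcript level changed and for both Msx genes, to set side by side a short element that most but not all of them hold. The window searched was the 250 bases before the RefSeq start of each gene (GRCm38.p6), which was at hand for 7 of the 8 members, all but Pbx3. Capitals mark CCAAT, or the same letters read on the opposite strand, which the general factor NF-Y is known to bind, and each stretch is written 5′ to 3′ on the strand of its gene. The promoter windows of Emx2 and Msx2 lie wholly inside GENCODE exons, as do 170 of the 250 bases for Meis2, 160 for Meis3 and 16 for Meis1. These exons are of a later GENCODE mouse release than the one used for counting. The release used for counting starts these genes upstream of RefSeq. The distance is 318 bases for Emx2, 294 for Msx2, 1220 for Meis2, 305 for Meis3 and 16 for Meis1. That release starts Pbx2 993 bases upstream, so these windows are not all sequence before the first transcribed base.
Emx2, chr19:59458657-59458686, plus strand: gagtaatagcgaCCAATcatcaagccattt
Meis1, chr11:19019006-19019035, minus strand: acttgctgcagcCCAATgcattgtgtaaga
Meis2, chr2:116064812-116064841, minus strand: atccaggagtttATTGGagcgcagactgat
Msx1, chr5:37824659-37824688, minus strand: cacgagcacagcCCAATggttctctccgga
Msx1, chr5:37824622-37824651, minus strand: cctcgcgctctgATTGGccgctgccacgct
Msx2, chr13:53472887-53472916, minus strand: ctccagggagagCCAATcggtggcgagcgt
Meis3, chr7:16175365-16175394, plus strand, with none of the letters searched: tctccgcgtgaacttccggatgtgacacag

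Meis1 is shown at greater length as the called member whose window lies almost wholly before its first annotated exon.
Meis1, chr11:19018986-19019219, minus strand: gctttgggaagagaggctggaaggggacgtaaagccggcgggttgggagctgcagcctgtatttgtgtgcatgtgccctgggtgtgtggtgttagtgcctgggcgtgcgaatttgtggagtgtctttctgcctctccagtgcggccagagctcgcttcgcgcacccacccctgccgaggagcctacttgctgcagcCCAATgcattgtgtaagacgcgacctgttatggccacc

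Besides CCAAT, the letters searched on both strands included GGGCGG, known as the GC box and bound by SP1. MEIS proteins are known to bind TGACAG. A joint site of PBX with HOX proteins is written TGATNNAT. Many other homeodomains recognise TAATTA. These letters were chosen after the windows had been looked at. CCAAT was present in 5 of the 7 windows, those of Emx2, Meis1, Meis2, Msx1 and Msx2, and in 33.8% of all 32851 promoter windows of the same length. TGACAG and TGATNNAT were in 0 of the 7, against 15.9% and 7.68% of all windows. TAATTA was in 1, that of Msx2, against 4.84%, and GGGCGG was in 4 (Msx1, Msx2, Pbx2 and Emx2), against 32.7%. GC content ranged from 47.6% in the Meis2 window to 77.6% in that of Pbx2, with a median of 52.4% over all windows, and CpG counts ranged from 7 to 27, with a median of 6 over all windows. Such matches describe letters in a window and not sites in use.

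Pbrm1 cKO and WT cells were compared to ask whether transcript levels of these genes depend on Pbrm1 in the stroma at the time of receptivity. Emx2, Meis2 and Meis1 were higher in Pbrm1 cKO, and Meis3 was lower. Msx1, Msx2, Pbx2 and Pbx3 did not pass the test. All 8 members were tested, and 4 of them passed an adjusted p of 0.05 in DESeq2, 3 higher and 1 lower. Over the 17474 genes tested, 31.1% passed, 15.9% higher and 15.2% lower, so a call was common in this comparison and does not by itself set the members apart. The median log2 fold change of the members was 0.26, against -0.00074 over all genes tested. The groups were apart in normalized counts, with no overlap, for 5 members (Emx2, Meis1, Meis2, Meis3 and Msx2), where 48.6% of all tested genes showed no overlap. A stricter DESeq2 test asked for a change beyond 0.58 in log2 units in either direction, and 0 of the 8 passed it (adjusted p = 1 for each, threshold 0.1).

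**Figure D1:**
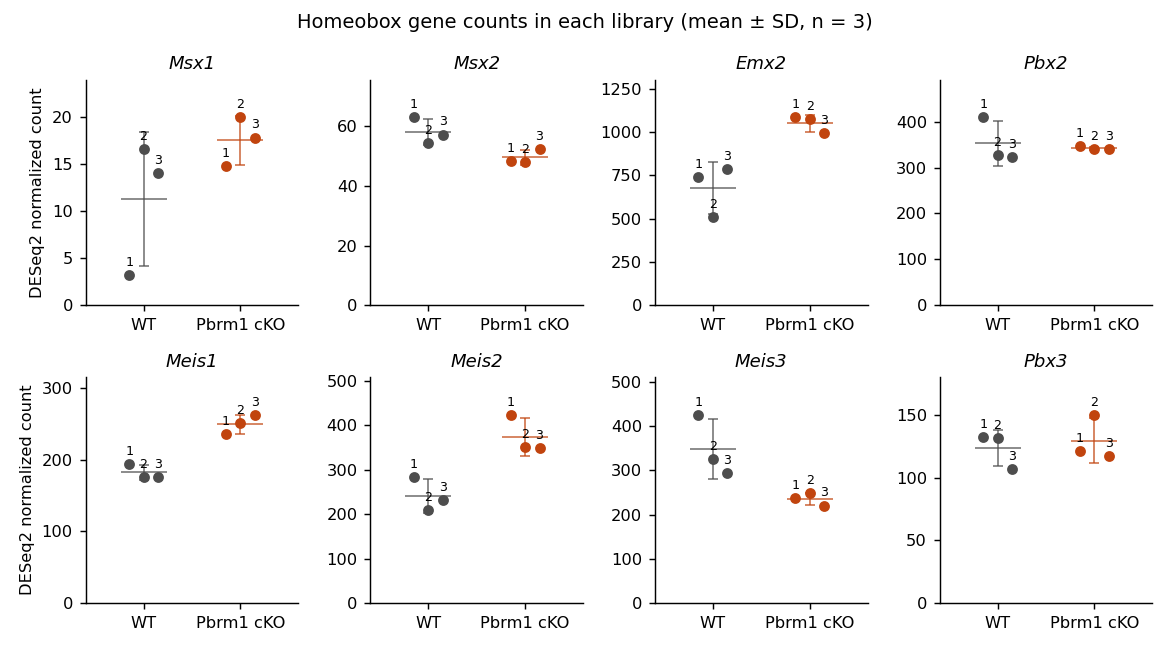
DESeq2 normalized counts (vertical axis, starting at 0) of the 8 homeobox genes in WT and Pbrm1 cKO; points are libraries marked with their replicate number, and bars are mean ± SD (n = 3). Emx2, Meis1 and Meis2 have every Pbrm1 cKO point above every WT point, Meis3 and Msx2 have every Pbrm1 cKO point below, and the other genes overlap.

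Total counts ranged from 13253575 to 18338667 per library, and a count of 0 allows up to 3 counts, or 0.164 to 0.226 CPM (counts scaled by library total; this covers counting error alone, as no molecular identifiers were used). Pbrm1, the targeted gene (chromosome 14, 31019138 to 31121592, GRCm38/mm10), averaged 1472 ± 178 normalized counts across WT libraries and 436 ± 33.9 across those of Pbrm1 cKO (SD, n = 3 per group), a fall with a DESeq2 adjusted p of 5.19e-40 (log2 fold change -1.76). The stromal markers were present throughout, but their summed level separated the groups and was lower in Pbrm1 cKO. Vim stood at 33864 ± 2669 normalized counts in WT and 28137 ± 941 in Pbrm1 cKO (log2 fold change -0.27, DESeq2 adjusted p = 0.0124). Among the markers of other cells, the summed level separated the groups for leukocytes and overlapped between them for epithelium, endothelium and smooth muscle. Part of that overlap rested on the most abundant gene of a list, an alternative chosen after seeing the data. Without Krt18 the epithelial sum was 556 to 1252 normalized counts per kilobase in WT and 1444 to 1513 in Pbrm1 cKO. Without Tagln the smooth muscle sum was 7036 to 9295 in WT and 5367 to 5825 in Pbrm1 cKO, so these groups did not overlap either, whereas the endothelial sum without Emcn still did. Over all genes tested, 15.9% were higher and 15.2% lower. Leukocyte markers were higher for 12 of 13 genes tested and 0 were lower. Their summed level was 2826 to 6343 normalized counts per kilobase in WT and 25280 to 26896 in Pbrm1 cKO. Lyz2, a macrophage lysozyme, went from 3948 ± 1782 to 18750 ± 1435 normalized counts. Epithelial markers were higher for 6 of 16 genes tested and lower for 0. Their sum was 1179 to 2017 in WT, lowest in WT replicate 1, and 1969 to 2119 in Pbrm1 cKO. Foxa2, a gland marker, had at most 3 counts in every library. Endothelial markers were higher for 1 of 12 genes and lower for 4, with a sum of 410 to 1225 in WT, again lowest in WT replicate 1, and 386 to 424 in Pbrm1 cKO. Smooth muscle markers were lower for 4 of 9 genes tested and higher for 0. Their sum was 23229 to 23649 in WT and 22464 to 23654 in Pbrm1 cKO, with Myocd at 3 counts or fewer throughout. Stromal markers were higher for 1 of 13 genes and lower for 6, with a sum of 16956 to 19423 in WT and 13300 to 14302 in Pbrm1 cKO. In bulk RNA, fewer cells of a type and less RNA per cell cannot be told apart, and the part of these other cells in the values below was not tested.

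Emx2 (ENSMUSG00000043969.4, chromosome 19, 59458372 to 59465357, plus strand, protein-coding) was the most abundant member. Normalized counts were 742, 507 and 788 for the WT replicates in order, and 1086, 1075 and 996 for those of Pbrm1 cKO. Every Pbrm1 cKO library lay above every WT library, and WT replicate 2 was the lowest of all. Emx2 rose 1.55-fold, from 679 ± 151 normalized counts to 1053 ± 49.0 (SD, n = 3 each; DESeq2 adjusted p = 0.000597, log2 fold change 0.63 with SE 0.16). Without WT replicate 2 the log2 fold change was 0.46 (adjusted p = 0.00108), the smallest value when a library was left out. Emx2os, a noncoding gene on the other strand whose first 264 bases overlap the start of Emx2, stood at 137, 212 and 208 in the WT libraries and at 176, 146 and 161 in those of Pbrm1 cKO. Its level did not pass the test (log2 fold change -0.20, 95% interval -0.62 to 0.21, DESeq2 adjusted p = 0.525), and the groups overlapped. Counting was by strand, which keeps reads of this divergent pair apart.

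Meis2 and Meis1 encode TALE proteins with closely related homeodomains that bind DNA with PBX and HOX partners. Meis2 (ENSMUSG00000027210.20, chromosome 2, 115863064 to 116065839, minus strand, protein-coding) was counted at 284, 210 and 231 (normalized) among WT libraries. Among Pbrm1 cKO libraries it reached 423, 351 and 348. Replicate 1 was the highest library within each group, and the groups did not overlap. Meis2 rose 1.55-fold (242 ± 38.4 to 374 ± 42.6 normalized counts, DESeq2 adjusted p = 0.00107, log2 fold change 0.63 with SE 0.17), and it stayed past the threshold without any single library.

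Meis1 (ENSMUSG00000020160.18, chromosome 11, 18879817 to 19018985, minus strand, protein-coding) was counted at 195, 176 and 176 (normalized) among WT libraries. Among Pbrm1 cKO libraries it reached 236, 251 and 263. The groups did not overlap, and both were tight. Meis1 rose 1.37-fold (182 ± 10.5 to 249.8 ± 13.5 normalized counts, DESeq2 adjusted p = 0.0141, log2 fold change 0.45 with SE 0.16), the smallest change among the called members. This call was not stable: leaving out WT replicate 2 or 3 gave an adjusted p of 0.0686 or 0.05003, and leaving out Pbrm1 cKO replicate 2 or 3 gave 0.0847 or 0.089. With the trend of counts with gene length removed, the log2 fold change was 0.30 (adjusted p = 0.126; range over the alternatives 0.00982 to 1), and that of Meis2 was 0.46 (adjusted p = 0.0178; range 3.42e-05 to 1). Several short noncoding genes lie inside Meis1, none with more than 7 counts in a library.

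Meis3 (ENSMUSG00000041420.18, chromosome 7, 16175090 to 16186504, plus strand, protein-coding), the remaining gene of this family, changed the opposite way. It was counted at 425, 326 and 295 (normalized) among WT libraries. Among Pbrm1 cKO libraries it stood at 238, 248 and 220. WT replicate 1 was the highest by a wide margin, and the lowest WT library still lay above every Pbrm1 cKO library. WT replicate 1 also had the highest stromal marker sum (19423 against 16956 and 17101 normalized counts per kilobase in the other WT libraries) and the lowest leukocyte sum, and their part in this value was not tested. Meis3 fell from 349 ± 68.0 to 236 ± 14.1 normalized counts, 0.675 times the WT level (DESeq2 adjusted p = 0.00522, log2 fold change -0.57 with SE 0.17). Without WT replicate 1 the log2 fold change was -0.40 (adjusted p = 0.0395), and without Pbrm1 cKO replicate 3 the call was lost (log2 fold change -0.52, adjusted p = 0.0539; range over the alternatives 0.000898 to 1).

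The opposite changes altered the make-up of the Meis transcript pool. It was looked at per length because the annotated genes differ in size, at 10532 bases for Meis1, 12043 for Meis2 and 3173 for Meis3. Meis3 made up 76.1%, 75.1% and 72.1% of the summed Meis1, Meis2 and Meis3 level in WT replicates 1 to 3. It made up 56.6%, 59.7% and 56.3% in Pbrm1 cKO. The groups were far apart in this share, which was chosen after its values were seen and is given without a test. The share was not recomputed with the length trend removed. That step brought the log2 fold change of Meis1 to 0.30, of Meis2 to 0.46 and of Meis3 to -0.53. The summed level was 147 ± 25.3 normalized counts per kilobase in WT and 129 ± 4.96 in Pbrm1 cKO, with overlapping libraries. Within the more closely related pair, Meis1 made up 46.5% ± 2.57 of Meis1 and Meis2 in WT and 43.4% ± 3.95 in Pbrm1 cKO, a difference of -3.08 percentage points (two-sided exact permutation test, p = 0.4, adjusted p = 0.5 over 3 such shares). This difference was -0.835 when Pbrm1 cKO replicate 1 was left out, -1.81 when WT replicate 2 was and -4.54 when Pbrm1 cKO replicate 3 was. With 3 libraries against 3 this test cannot go below 0.1.

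**Figure D2:**
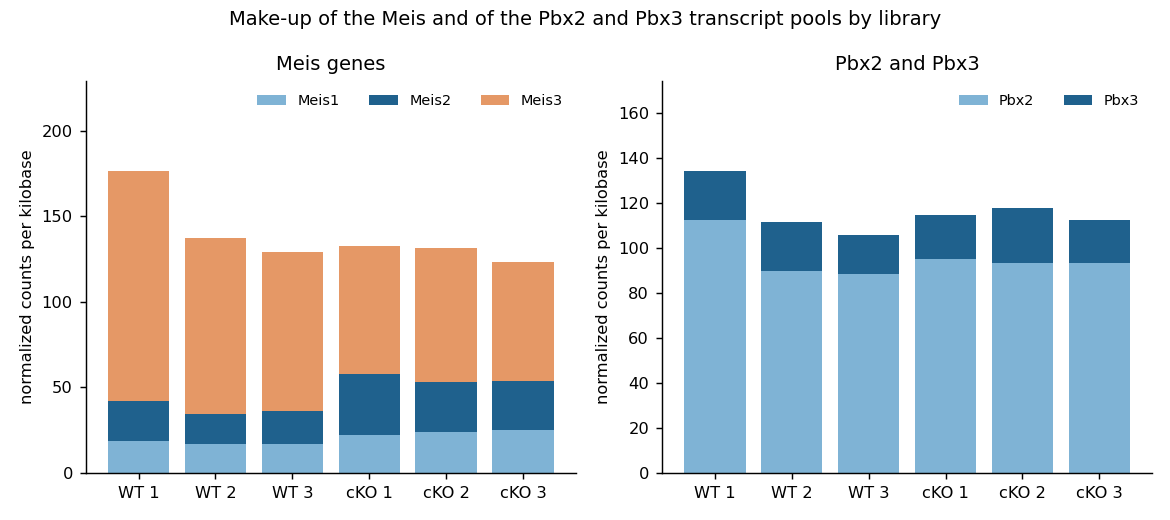
Stacked bars give the normalized counts per kilobase (vertical axis, starting at 0) of the Meis genes, left, and of Pbx2 and Pbx3, right, in each of the 6 libraries. Meis3 takes 72.1% or more of the Meis pool in each WT library and 59.7% or less in each Pbrm1 cKO library, and the Pbx2 and Pbx3 bars overlap in height between groups.

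Pbx2 and Pbx3 encode partners that bind DNA with both MEIS and HOX proteins. Pbx2 (ENSMUSG00000034673.14, chromosome 17, 34591266 to 34597400, plus strand, protein-coding) stood at 409, 327 and 322 normalized counts among WT libraries and at 346, 340 and 340 among those of Pbrm1 cKO. The Pbrm1 cKO libraries lay inside the WT range, and the difference did not pass the test (log2 fold change -0.05, 95% interval -0.33 to 0.24, DESeq2 adjusted p = 0.86). Gpsm3 overlaps the start of Pbx2 on the same strand by 489 bases, and reads falling in exons of both genes were left out by the authors' counting. Gpsm3 rose from 53.1 ± 17.5 to 110.3 ± 28.4 normalized counts (DESeq2 adjusted p = 0.00287, log2 fold change 1.05).

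Pbx3 (ENSMUSG00000038718.15, chromosome 2, 34171457 to 34373142, minus strand, protein-coding) stood at 133, 132 and 107 normalized counts among WT libraries and at 121, 150.2 and 117 among those of Pbrm1 cKO. The groups overlapped and the difference did not pass the test (log2 fold change 0.07, 95% interval -0.34 to 0.48, DESeq2 adjusted p = 0.855). For both genes the interval leaves room for changes of modest size in either direction. Pbx3 made up 17.4% ± 1.76 of the Pbx2 and Pbx3 level in WT and 18.4% ± 2.13 in Pbrm1 cKO (two-sided exact permutation test, p = 0.5, adjusted p = 0.5), and the difference of 1.04 percentage points ran from -0.189 without Pbrm1 cKO replicate 2 to 2.05 without WT replicate 2.

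Msx2 (ENSMUSG00000021469.9, chromosome 13, 53466884 to 53473074, minus strand, protein-coding) was the more abundant of the Msx genes. It stood at 63.1, 54.4 and 57.3 normalized counts among WT libraries and at 48.3, 47.9 and 52.5 among those of Pbrm1 cKO. Every Pbrm1 cKO library lay below every WT library, but these rest on 49 to 60 raw counts per library, and the difference did not pass the test (log2 fold change -0.23, 95% interval -0.77 to 0.30, DESeq2 adjusted p = 0.588).

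Msx1 (ENSMUSG00000048450.10, chromosome 5, 37820485 to 37824583, minus strand, protein-coding) is known in uterine epithelium as well as stroma and was the lowest member. Its raw counts were 3, 15 and 13 in WT and 15, 25 and 19 in Pbrm1 cKO, which are 3.21, 16.6 and 14.1 against 14.8, 20.0 and 17.8 normalized counts. WT replicate 1 stood apart from the other 5 libraries, and it also had the lowest epithelial marker sum (1179 against 2017 and 1889 normalized counts per kilobase in the other WT libraries). The part of epithelial cells in this value was not tested. The difference between groups was not detectable at this depth (log2 fold change 0.64, 95% interval -0.56 to 1.84, DESeq2 adjusted p = 0.488), and it was 0.20 when WT replicate 1 was left out and 1.02 when WT replicate 2 was. Msx1 made up 5.11%, 24.5% and 20.6% of the Msx1 and Msx2 level in WT and 24.5%, 30.6% and 26.4% in Pbrm1 cKO (two-sided exact permutation test, p = 0.2, adjusted p = 0.5). That difference of 10.4 percentage points was 4.63 when WT replicate 1 was left out.

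**Figure D3:**
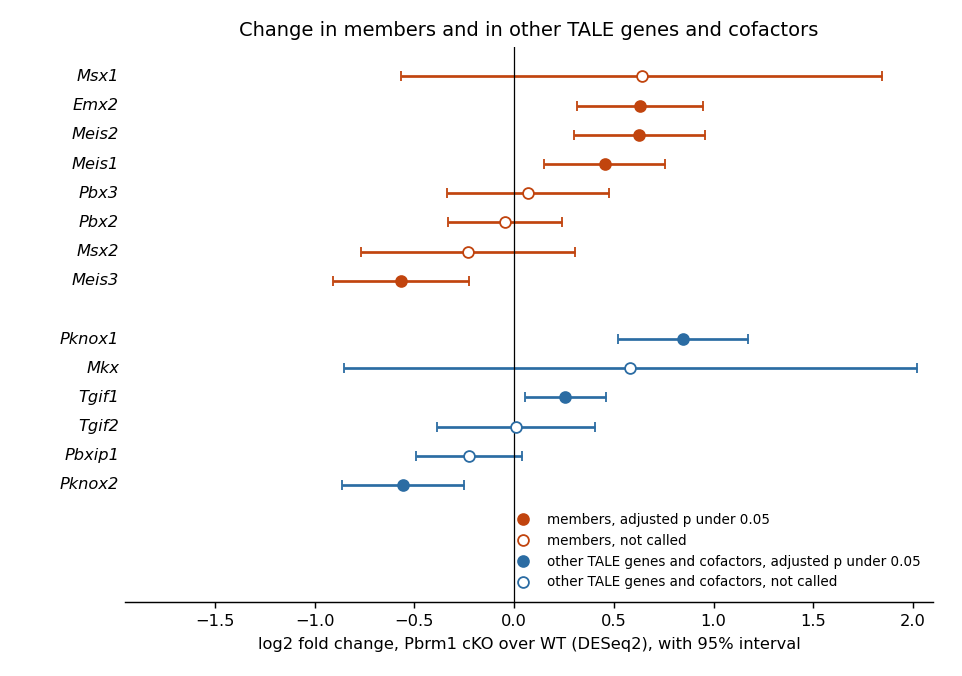
Log2 fold change of Pbrm1 cKO over WT (horizontal axis) with its 95% interval for the 8 members, top, and the other TALE genes and cofactors tested, bottom; filled points passed an adjusted p of 0.05, and Irx1, whose interval is wider than the axis, is left out. Emx2, Meis2 and Meis1 lie to the right of 0 and Meis3 to the left, and the interval of Msx1 is the widest among members.

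Levels of different genes were compared as TPM, which divides counts by gene length and scales each library to the same total. In WT cells the order was Emx2 (42.8 ± 10.2 TPM), Meis3 (20.8 ± 4.51), Pbx2 (18.3 ± 2.98), Pbx3 (3.82 ± 0.462), Meis2 (3.79 ± 0.701), Msx2 (3.35 ± 0.342), Meis1 (3.27 ± 0.267) and Msx1 (0.681 ± 0.421). Meis3 and Pbx2 overlapped across libraries, as did each neighbour from Pbx3 to Meis1, so those steps in the order are not resolved. In Pbrm1 cKO the order was Emx2 (76.0 ± 5.71 TPM), Pbx2 (20.3 ± 0.8), Meis3 (16.1 ± 1.34), Meis2 (6.74 ± 0.944), Meis1 (5.13 ± 0.133), Pbx3 (4.60 ± 0.683), Msx2 (3.27 ± 0.0881) and Msx1 (1.22 ± 0.171). Here only Meis1 and Pbx3 overlapped among neighbours. In WT, 81.7% of tested genes lay below Emx2 and 17.2% below Msx1. The median gene shifted by 0.20 on the log2 TPM scale between groups, so TPM values were compared only within a group.

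**Figure D4:**
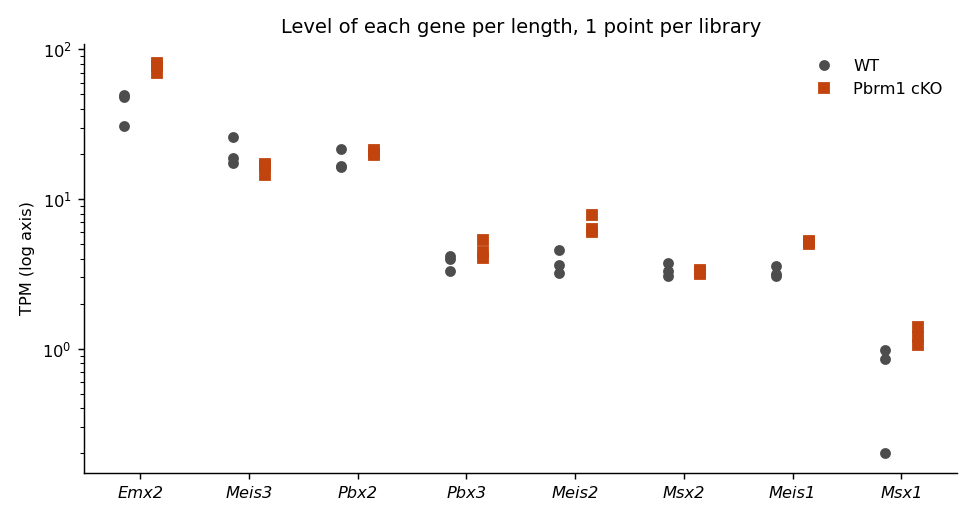
TPM (vertical axis, log scale) of each member in each library, with circles for WT and squares for Pbrm1 cKO and genes ordered by their WT mean. Emx2 is highest and Msx1 lowest in both groups, and the low WT point of Msx1 is replicate 1; a shift of 0.20 on the log2 scale in the median gene separates the groups on this axis.

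Other TALE genes and their cofactors were taken from a list of 13, of which 7 were tested, 2 were higher and 1 was lower in Pbrm1 cKO (median log2 fold change 0.26 over those tested). With 31.1% of all tested genes called, this count is near the background. Irx1 had 1 to 13 counts per library and was not called (DESeq2 adjusted p = 0.358). The other Irx genes, 5 of the list, had at most 3 counts in every library.

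Pknox1 and Pknox2 encode the TALE proteins most like MEIS, and they changed in opposite directions. Pknox1 rose from 190.4 ± 25.5 normalized counts to 342 ± 36.5 (DESeq2 adjusted p = 4.76e-06, log2 fold change 0.85 with SE 0.17). Pknox2 fell from 732 ± 141 to 498 ± 30.3 (adjusted p = 0.00185, log2 fold change -0.56 with SE 0.15), and their summed level per length was 98.5 ± 17.2 and 97.8 ± 7.55 normalized counts per kilobase in WT and Pbrm1 cKO. Tgif1, a TALE repressor in TGF-beta signalling, was near the threshold (log2 fold change 0.26, adjusted p = 0.044) and lost its call without WT replicate 2 (0.0598), WT replicate 3 (0.119) or Pbrm1 cKO replicate 1 (0.183), 2 (0.159) or 3 (0.107), where 1 gene of the list remained higher.

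HOX proteins are known as DNA-binding partners of TALE proteins. Hox genes of the posterior groups were listed here, and partnership in these cells was not tested. Of 13 such Hox genes, 10 were tested, 3 were lower and 0 higher in Pbrm1 cKO, with a median log2 fold change of -0.42 over those tested, and 7 of the 10 did not overlap between groups. Over all genes tested, 15.2% were lower, 15.9% higher and 48.6% without overlap, so the share of these Hox genes called was close to that of all genes (31.1%). The lowered genes were the neighbours Hoxa9 (log2 fold change -0.71, DESeq2 adjusted p = 0.000812), Hoxa11 (-0.67, adjusted p = 2.61e-07) and Hoxa10 (-0.56, adjusted p = 2.16e-05). Hoxd10 and Hoxd9 are named after their values were seen. Hoxd10 passed without WT replicate 3 (log2 fold change -0.39, adjusted p = 0.0125) and Hoxd9 without WT replicate 1 (0.50, adjusted p = 0.00334), so the count of higher genes was then 1. Hoxc11, also named after its values were seen, had a log2 fold change of -0.84 (DESeq2 adjusted p = 0.0916) and passed as lower in edgeR (adjusted p = 0.0182) and limma voom (0.0281), which made 4 Hox genes lower.

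BMP and Wnt genes were listed because BMP signals induce Msx genes and MSX proteins are known to restrain Wnt5a in the uterus. All 19 were tested, 11 were lower and 2 higher in Pbrm1 cKO, with a median log2 fold change of -0.54, where 15.2% of all tested genes were lower and 15.9% higher. Bmp2, the ligand known for its role in decidualization, fell from 201 ± 40.3 normalized counts to 93.9 ± 6.71 (DESeq2 adjusted p = 3.31e-06, log2 fold change -1.09). Wnt11 fell from 77.8 ± 4.53 to 37.9 ± 9.21 (adjusted p = 0.00177, log2 fold change -1.04). The BMP-responsive genes Id1 and Id3 fell (log2 fold change -0.76 and -0.74, adjusted p = 1.9e-11 and 2.08e-15), whereas Id2 rose (0.40, adjusted p = 0.00389). Id1, Id3, Wnt5a, Acvr1, Bmp4 and Bmp7 were chosen after their values were seen, as was Wnt7a, a ligand of the uterine epithelium, which rose from 9.05 ± 3.46 normalized counts to 53.3 ± 1.76 (adjusted p = 7.07e-08, log2 fold change 2.56). Wnt5a had a log2 fold change of 0.27 (adjusted p = 0.15) and passed without WT replicate 3 (0.46, adjusted p = 3.62e-06), when Acvr1 also passed (0.46, adjusted p = 0.0431) and 4 genes were higher. Bmp4 (adjusted p = 0.0152) lost its call when WT replicate 2 (0.0841) or 3 (0.0604), or Pbrm1 cKO replicate 2 (0.0762) or 3 (0.0925), was left out, and Bmp7 without WT replicate 2 (0.0556).

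**Figure D5:**
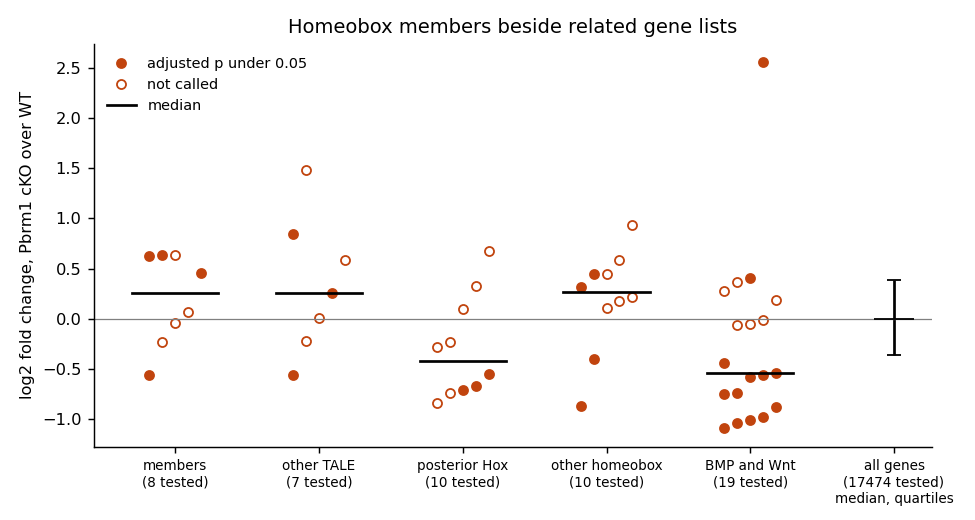
Log2 fold change of Pbrm1 cKO over WT (vertical axis) for every tested gene of the members and the related lists; filled points passed an adjusted p of 0.05, black lines are list medians, and the bar at the right gives the median and quartiles of all 17474 tested genes. The members have a median of 0.26, the posterior Hox genes of -0.42 and the BMP and Wnt genes of -0.54.

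Genes whose counts followed a member most closely over the 6 libraries were found among 9236 protein-coding genes with a mean of at least 100 normalized counts, by Pearson correlation of log2 (normalized count + 1). For Emx2 these were Rtn4 (r = 0.999), Stk38 (0.997) and Ccm2 (0.996). Their log2 fold changes were 0.20, 0.49 and 0.33, against 0.63 for Emx2, and Rtn4 was not called (DESeq2 adjusted p = 0.0719). For Meis3 the closest genes were Shroom2 (0.998), Lsm11 (0.998) and Jazf1 (0.998). Their log2 fold changes were -0.65, -0.49 and -0.46, against -0.57 for Meis3. The points share the group difference and the library scaling, so these values describe likeness over 6 libraries only.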

How the data were processed

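Single-end reads were trimmed (cutadapt) and aligned (HISAT2, GRCm38/mm10) by the authors. They were counted over the genes of GENCODE mouse release M18 by featureCounts 1.6.4, set to the reverse strand. The deposited values are raw counts per gene and library. Reads that map to several places or overlap several genes on a strand are left out by its defaults. The labels describe a random and poly(T) primed total RNA kit, while mRNA purification is what the study's methods give, so the RNA classes captured are not settled.

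Symbols were found for 99.7% of identifiers. Counts were tested in R 4.3.3 with the Wald test of DESeq2 1.42.0 (its default scaling and independent filtering, no covariates), all genes together, with Benjamini-Hochberg adjustment at 0.05 and unshrunken log2 fold changes. Intervals are the estimate ± 1.96 SE. Alternatives used edgeR 4.0.16 and limma 3.58.1 among others, and the scripts were tested on simulated data. TPM was computed from counts and the deposited gene lengths. Shares within a family were compared by exact permutation over libraries.

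Members, lists and letters searched were chosen with earlier results of these data known. An item of 1 list is not reported here. Named were all members, Pbrm1, Hoxa10 and Hoxa11, and genes overlapping a member, except those with at most 7 counts in every library. From each list the 2 called genes that rose most and the 2 that fell most (mean of at least 50 normalized counts) were named. At most 3 markers per list, and the 3 genes most like the highest and the lowest called member, were also named. Genes named outside this rule, after their values were seen, are marked as such.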

Additional observations from a re-analysis of the deposited data

How the results depend on the processing

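Results were recomputed under 15 alternatives: edgeR, TMM size factors, a filter of at least 10 counts in 3 libraries, no independent filtering, an adjusted p of 0.1, a test for changes beyond 0.58 (log2), limma voom with a separate spread per group, removal of the length trend, the replicate number as a block, and each of the 6 libraries left out. Depth limits Msx1 most, with 3 to 25 counts per library.

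The test for changes beyond 0.58 ended the calls of Emx2 (0.63), Meis2 (0.63), Meis1 (0.45) and Meis3 (-0.57), leaving 0 members higher and 0 lower. Meis1 and Meis3 lie inside 0.58 and could not pass by its construction. Emx2 and Meis2 lie just beyond 0.58, with SE 0.16 and 0.17. This test left 0 higher and 0 lower among TALE genes, 0 lower among Hox genes, 0 and 0 among other homeobox genes, and 1 higher and 0 lower among BMP and Wnt genes. Meis1 also lost its call with the length trend removed (0.30) and under the replicate block (0.45, adjusted p = 0.11), and without a library its value was 0.42 to 0.50. Meis3 was -0.68 to -0.40 without a library, and the number of members lower was 0 to 1. Pbx2 (-0.11 to 0.073) and Pbx3 (-0.053 to 0.14) changed sign near 0 when a library was left out. The cause was not tested. Emx2 and Meis2 kept their direction and call in 14 alternatives each.

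The number of TALE genes higher was 1 with at least 10 counts in 3 libraries, with no independent filtering, with the length trend removed and under the replicate block, and 1 to 2 without a library. Posterior Hox genes higher numbered 1 with limma voom and 0 to 1 without a library. Other homeobox genes higher numbered 1 with the length trend removed, and lower numbered 1 under the replicate block; without a library both were 1 to 2. BMP and Wnt genes higher were 2 to 4 without a library, and lower were 10 under the replicate block, where Bmp4 lost its call (-0.56, adjusted p = 0.114). Across all genes, the test for changes beyond 0.58 called 1262. Same-numbered libraries correlated in their deviations at 0.277, -0.235 and 0.0637, and WT replicate 2 correlated best with Pbrm1 cKO replicate 3, so the replicate number was not taken as a pairing; the block called 4003 genes against 5432.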

Other observations

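Other homeobox genes of the Müllerian duct or of mesenchyme were listed beside the members. Of 17 genes, 10 were tested, of which Pbrm1 cKO had 2 higher and 2 lower, with a median log2 fold change of 0.27 over those tested. That count is near the 31.1% of all tested genes that were called. Prrx1 and Prrx2, paired-type homeobox genes of mesenchyme, changed in opposite directions. Prrx1 rose from 2290 ± 242 to 3118 ± 194 normalized counts (mean ± SD of 3; DESeq2 adjusted p = 0.000324, log2 fold change 0.45), and Prrx2 fell from 317 ± 73.4 to 174 ± 4.14 (-0.87, adjusted p = 4.83e-05). The zinc finger homeobox genes Zeb2 and Zeb1, repressors of epithelial genes, also went opposite ways. Zeb2 had 2735 ± 190 normalized counts in WT and 3415 ± 170 in Pbrm1 cKO (log2 fold change 0.32, adjusted p = 0.00393), and 0.07 with the length trend removed (adjusted p = 0.618). Zeb1 had 660.0 ± 60.5 in WT and 499.6 ± 42.1 in Pbrm1 cKO (-0.40, adjusted p = 0.00803). Both Zeb calls were lost without Pbrm1 cKO replicate 1 (adjusted p = 0.0563 for Zeb2 and 0.0961 for Zeb1) or without Pbrm1 cKO replicate 2 (0.0521 and 0.0522).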
